A study of Rattus norvegicus with 3 samples.

Results

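The small leucine-rich proteoglycans examined here were Dcn (decorin), Lum (lumican), Bgn (biglycan), Fmod (fibromodulin), Ogn (osteoglycin), Omd (osteomodulin), Prelp, Aspn (asporin) and Epyc (epiphycan), 9 of the 32623 genes in the count matrices. They were taken by symbol, and all 9 were listed, the most abundant as Dcn (ENSRNOG00000004554), Ogn (ENSRNOG00000029792), Bgn (ENSRNOG00000055962), Lum (ENSRNOG00000004610) and Epyc (ENSRNOG00000004717). The cells came from the cochlear basal membrane of untreated Sprague-Dawley rats, dissociated at postnatal day 1 (P1), 7 (P7) and 14 (P14) from several pooled animals per stage, with 1 library per stage. Since each stage has 1 library, stage and library cannot be told apart, and every interval given covers counting error only. The labels name the cells as greater epithelial ridge cells, the columnar epithelium beside the inner hair cells in the immature cochlea. The libraries held many cell types, and stromal cells made up most of each: 65.8% of kept cells at P1, 55.3% at P7 and 55.1% at P14.

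Small leucine-rich proteoglycans are secreted core proteins built of leucine-rich repeats, most of which carry chondroitin, dermatan or keratan sulfate chains. They bind collagen fibrils and set fibril diameter and spacing, and several of them also bind growth factors and receptors at the cell surface. Dcn, Bgn and Aspn are close relatives, Lum, Fmod, Omd and Prelp form another branch, and Ogn and Epyc a further one. In the inner ear the fibrocytes of the lateral wall and limbus lie in a matrix rich in such proteins. Epyc is best known from cartilage and from the supporting cells of the cochlear epithelium.

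In the RefSeq order of protein-coding genes of the GRCr8 assembly, Dcn, Lum and Epyc lie on 1 chromosome. Only Kera, a relative that is not a member, stands between Lum and Epyc in this order. Ogn, Omd and Aspn follow each other directly in it on another chromosome, and Prelp and Fmod are direct neighbours among protein-coding genes. Neighbouring members were not always found in the same cells, and 3 promoter windows are shown as a description only. Epyc was found mainly in epithelium while Dcn and Lum were found mainly in stroma, and Omd was almost absent beside the abundant Ogn. Fmod, a low stromal and epithelial gene, and its neighbour Prelp had 82.7% and 81.5% of their UMIs in stroma. The part of the promoters in these levels was not tested. RefSeq windows were at hand for 6 of the 9 members (none for Dcn, Bgn and Prelp), and those of Epyc, Omd and Fmod lay wholly before the annotated gene, at chr7:34323082-34323331 on the plus strand, chr17:15274871-15275120 on the minus strand and chr13:48045317-48045566 on the plus strand of GRCr8. The 250 bases before the start are given 5′ to 3′, with capitals at any match, on either strand, to the motifs searched. The TATA motif was spelled TATAAA. The second motif searched for was the pentamer CCAAT. The letters taken for a GC-rich box were GGGCGG. The E-box was taken as the palindrome CAGCTG.
Epyc: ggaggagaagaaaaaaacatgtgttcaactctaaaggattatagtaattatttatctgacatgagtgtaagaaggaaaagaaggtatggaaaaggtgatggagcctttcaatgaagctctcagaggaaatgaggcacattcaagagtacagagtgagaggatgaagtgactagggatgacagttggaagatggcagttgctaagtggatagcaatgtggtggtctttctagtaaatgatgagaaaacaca
Omd: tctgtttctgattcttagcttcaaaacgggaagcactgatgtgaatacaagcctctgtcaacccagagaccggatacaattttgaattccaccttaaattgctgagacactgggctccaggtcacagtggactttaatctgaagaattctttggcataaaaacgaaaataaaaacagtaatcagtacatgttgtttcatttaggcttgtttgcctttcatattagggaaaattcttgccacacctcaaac
Fmod: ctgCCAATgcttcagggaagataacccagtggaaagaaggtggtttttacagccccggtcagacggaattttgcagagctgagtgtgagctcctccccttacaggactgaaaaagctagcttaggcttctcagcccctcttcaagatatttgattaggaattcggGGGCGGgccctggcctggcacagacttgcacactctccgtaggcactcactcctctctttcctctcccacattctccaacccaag
The Epyc window had 39.2% GC and 0 CpG, the Omd window 38.8% GC and 3 CpG, and the Fmod window 52.8% GC and 5 CpG. Over all 33469 RefSeq windows of this length the median was 51.2% GC and 5 CpG. Fmod held a GC box starting 85 bases and a CCAAT box starting 247 bases before the start, and none of these letters stood in the Epyc and Omd windows. Of all windows, 30.5% held GGGCGG, 34.0% CCAAT, 12.9% TATAAA and 12.0% CAGCTG.

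After filtering, 12779 of 14068 barcodes remained at P1, 12581 of 14501 at P7 and 5281 of 6358 at P14, with a median of 6565, 6878 and 1614 UMIs per cell. The P14 library was thus much shallower, and 53, 16 and 19 cell barcodes were shared between P1 and P7, P1 and P14, and P7 and P14. Levels are UMIs summed over cells and given as counts per 1000000 UMIs (CPM), and a gene was counted as higher or lower between stages when its level differed 2-fold or more. A bulk sum of this kind cannot tell fewer cells of a type from less RNA per cell. Of the 9 members, 7 had at least 10 CPM over all kept cells. Omd and Aspn did not.

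Dcn was the most abundant member from P7 on and Ogn at P1. Over all kept cells the 9 members together took 1510 CPM at P1, 2667 at P7 and 4228 at P14. P7 was higher than P1 by 0.82 on the log2 scale (95% interval 0.81 to 0.83), and P14 higher than P7 by 0.66 (0.65 to 0.68). The make-up of the family differed more than its sum. At P1 Ogn gave 35.7% of the family's UMIs, Dcn 33.8% and Bgn 18.8%. At P14 Dcn gave 62.5%, Lum 19.6%, Ogn 9.45% and Bgn 2.49%.

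Dcn, which binds collagen and transforming growth factor beta, stood at 510 CPM at P1, 1622 at P7 and 2642 at P14, so each stage was above the one before. Lum, a keratan sulfate proteoglycan of fine collagen fibrils, had 86.9, 148 and 829 CPM, most of the difference falling between P7 and P14. Epyc had 35.8, 81.5 and 175 CPM. Prelp, which binds collagen and heparan sulfate, had 37.9, 42.4 and 71.2 CPM. These 4 genes were highest in the P14 library, Epyc there through few cells, as given further on. Ogn, also called mimecan, had 539, 432 and 399 CPM and was highest at P1. Bgn, the closest relative of Dcn, had 283, 330 and 105 CPM. Fmod, a collagen-binding keratan sulfate proteoglycan, had 16.8, 11.4 and 5.24 CPM. Dcn and Bgn, close relatives, thus differed in opposite directions between P7 and P14.

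**Figure D1:**
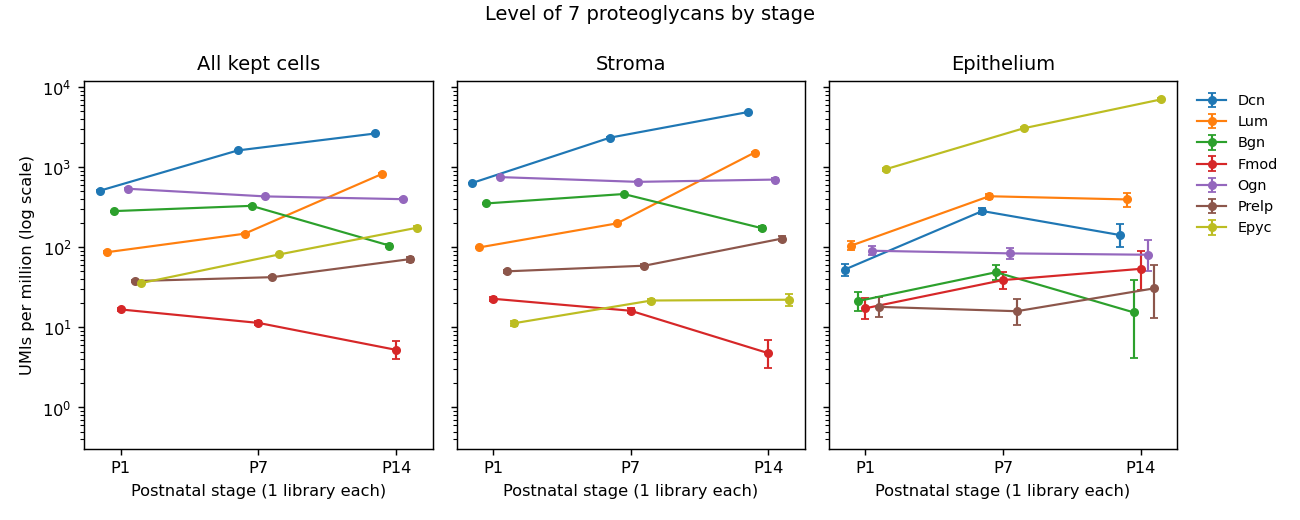
Level of 7 members (CPM, log axis) at P1, P7 and P14, for all kept cells, stroma and epithelium. Points are 1 library each and bars are 95% counting intervals. Lum climbs from 148 to 829 CPM between P7 and P14 over all cells while Bgn goes from 330 to 105, and Epyc leads in epithelium at every stage.

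Between P1 and P7, 2 of the 7 members were higher 2-fold or more, Dcn (log2 ratio 1.67, 1.65 to 1.68) and Epyc (1.19, 1.13 to 1.24), and 0 were lower. Of all 7750 genes with at least 10 CPM, 8.61% were higher and 5.33% lower by that measure. Between P7 and P14, Lum (2.49, 2.45 to 2.52) and Epyc (1.11, 1.04 to 1.18) were higher and Bgn (log2 ratio -1.65, -1.73 to -1.56) and Fmod (-1.12, -1.52 to -0.75) lower. The share of all genes was 13.7% higher and 9.88% lower. For P14 against P1, Dcn, Lum and Epyc were higher and Bgn and Fmod lower, beside 18.5% and 10.7% of all genes. The median log2 ratio of the 7 members was 0.22 for P7 against P1 and 0.70 for P14 against P7, beside 0.12 and 0.02 over all 7750 genes. With so few members, 1 gene more or less changes these shares greatly, so no more than the counts is given.

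The cells fell into 27 clusters, made without the members among the genes that drove the clustering. None of the marker genes that named the classes was a member. Stroma, 10 clusters named from genes of fibroblasts, fibrocytes, cochlear mesenchyme, cartilage and bone, held 80.5% of the family's UMIs in 59.6% of the cells. Stromal cells held 87.0% of the Ogn UMIs, 82.7% for Fmod, 82.1% for Dcn, 81.5% for Prelp, 79.2% for Bgn and 78.4% for Lum. Epyc was the exception, with 76.0% (75.2 to 76.7) of its UMIs in epithelium and 14.9% in stroma. In CPM, 6 of the 7 members were at least 2-fold higher in stroma than in all other cells together, with log2 ratios from 1.32 for Lum to 2.21 for Ogn, beside 5.88% of all genes. For Epyc the log2 ratio was -3.05.

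**Figure D2:**
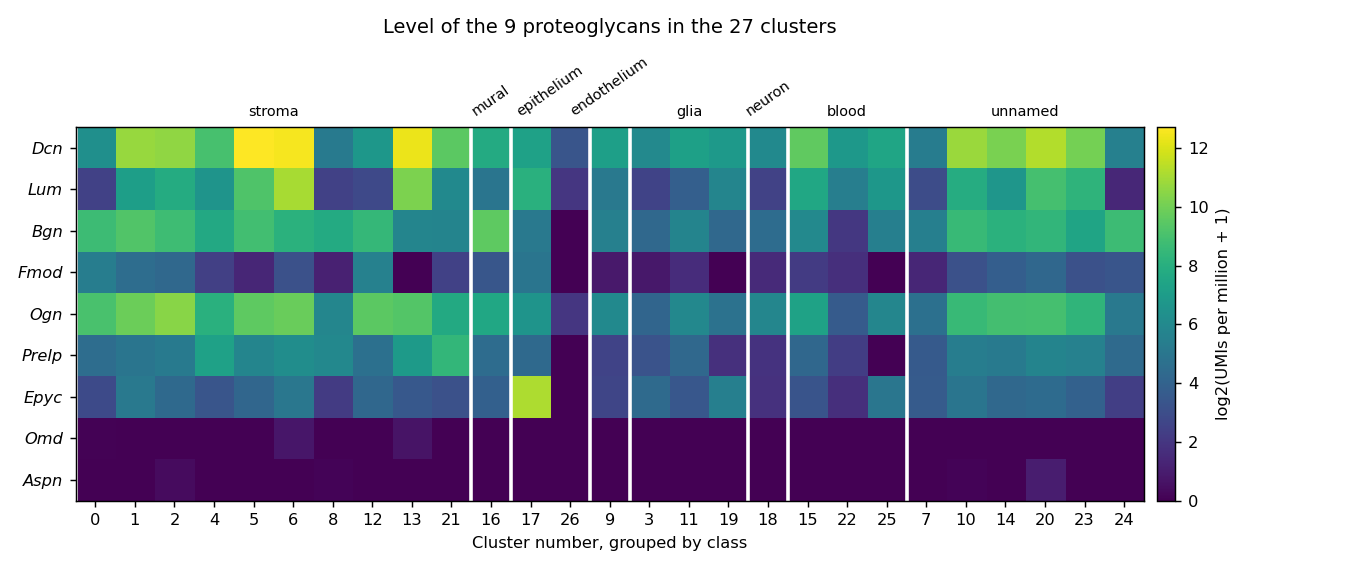
Level of the 9 members, as log2(CPM + 1), in the 27 clusters grouped by class. Dcn is highest in clusters 5, 6 and 13, Epyc in cluster 17, and Omd and Aspn are near 0 in every cluster.

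Different stromal clusters carried different members. Cluster 5, led by Ramp3, Aard and Gpc3 and almost all from P7, had the highest Dcn level at 6694 CPM, and 99.4% of its cells held a Dcn UMI. Cluster 6, led by Coch, LOC100911545 and Dmp1 and almost all from P14, had 5920 CPM of Dcn and the highest Lum level, 2146 CPM. Cluster 13, the P14 cells led by Ptgds, Slc7a11 and Slc16a11, came next for both, with 5187 CPM of Dcn and 1158 of Lum. The intervals of neighbours in this order did not overlap.

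Ogn was highest in cluster 2, led by Tac1, Col8a1 and Ogn itself, and in cluster 1 (Dlx5, Sfrp4, Gdf10). Pooled over stages these had 1420 and 926 CPM, but cluster 2 came almost all from P1 and cluster 1 from P7. Within a stage their order turned, with 1460 CPM in cluster 2 and 1514 in cluster 1 at P1 (intervals overlapping), and 751 and 889 at P7. Cluster 6 had 885 CPM at P14. Prelp was highest in cluster 21 (Clec3b, Gpcpd1, Rarres1; P14) with 335 CPM and in cluster 4 (Aldh1a2, Calb2, Kcnk2) with 153. Fmod was low throughout. In cluster 12 (Gcg, Car3, Cnmd) it had 54.4 CPM at P1 and 46.7 at P7, and in cluster 0 (Isyna1, Col9a3, Crym) 47.1 at P1 and 3.58 at P7. Cluster 12 carried cartilage-type genes, Cnmd among them, and Fmod is known from cartilage.

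Bgn reached its highest pooled level outside stroma, 759 CPM in the mural cluster 16, pericytes and vascular smooth muscle led by Rgs5, Ndufa4l2 and Kcnj8. By stage the mural level was 856 CPM at P1, 667 at P7 and 674 at P14. Stromal cluster 1 had 483 CPM at P1, below the mural level, and 628 at P7, where the intervals overlapped. Bgn made up 61.0% of the mural family UMIs and Dcn 17.6%. The Dcn UMIs per Bgn UMI in mural cells were 0.131 at P1 and 0.419 at P7, beside 1.80 and 5.06 in stroma. Both mural values lay below the stromal ones by more than their counting intervals.

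**Figure D3:**
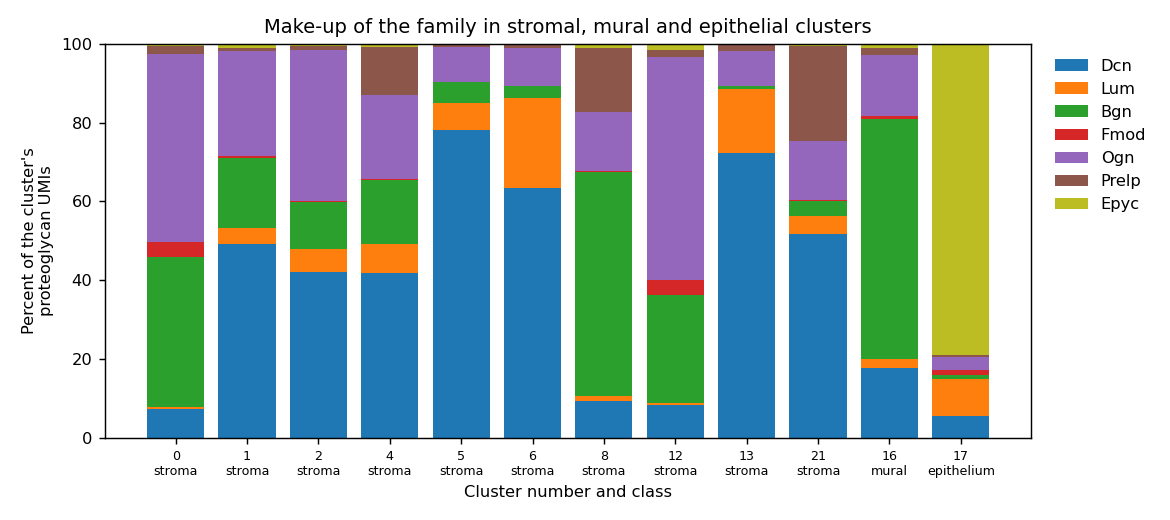
Percent of each cluster's family UMIs given by 7 members, for the 10 stromal clusters, the mural cluster 16 and the epithelial cluster 17. Dcn fills 78.0% of cluster 5, Bgn 57.0% of cluster 8 and 61.0% of cluster 16, Ogn 56.6% of cluster 12, and Epyc 79.0% of cluster 17.

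The 10 stromal clusters also differed in how much of the family they carried. The sum ran from 376 CPM in cluster 8 (Cav1, Sp5, Olfm1), where Bgn gave 57.0%, to 9340 CPM in cluster 6. Clusters 0 and 12 held 7.25% and 8.23% of the family as Dcn, cluster 8 held 9.29%, and the other stromal clusters from 41.7% to 78.0%. In clusters 0 and 12 Ogn gave 47.8% and 56.6%. After each cell was thinned to 1000 UMIs, 9.26% of stromal cells held no member at P14, 22.1% at P7 and 32.1% at P1, and 35.2%, 17.9% and 9.03% held 3 or more members.

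Within stroma the sum was 1928 CPM at P1, 3759 at P7 and 7444 at P14. The log2 ratio was 0.96 for P7 against P1 (0.95 to 0.97) and 0.99 for P14 against P7 (0.97 to 1.00). Dcn went from 637 to 2343 and 4886 CPM, and Lum from 99.7 to 199 and 1527 CPM. Bgn stood at 353, 463 and 174 CPM and Ogn at 754, 657 and 702. Prelp had 50.1, 59.0 and 129 CPM and Fmod 22.8, 16.1 and 4.76 CPM. For P7 against P1, 1 of 7 members, Dcn, was higher 2-fold or more and 0 were lower, beside 9.61% and 4.64% of 7409 genes. Lum, at a log2 ratio of 0.997, lay just below that limit and passed it in 6 of 11 alternatives. For P14 against P7, Dcn, Lum and Prelp were higher and Bgn and Fmod lower, beside 12.7% and 12.6% of genes. The shares of stromal cells with a UMI, after thinning, moved the same way for Dcn (27.7%, 48.2% and 81.3%) and for Lum (6.78%, 11.9% and 52.01%), while those for Bgn were 28.6%, 36.0% and 13.2%.

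The stromal cells of the stages lay mainly in different clusters, named here because they limit the comparison. Clusters 0, 2, 8 and 4 held most of the P1 stroma, clusters 1, 5, 4 and 12 most of the P7 stroma, and clusters 6, 13 and 21 nearly all of the P14 stroma. Cluster by cluster the picture depended on which clusters were taken. Inside the 6 stromal clusters with at least 50 cells at both P1 and P7, the Dcn level was not higher 2-fold in any, and 3 of 6 log2 ratios were above 0. Their median was 0.16, from -0.67 in cluster 0 to 0.80 in cluster 8, while the ratio over all stroma was 1.88. Over all 17 clusters of any class with that many cells, Dcn was higher 2-fold in 10, with a median of 1.32. None of these 10 was named as stroma, and several had little Dcn, such as glial cluster 3 with 13.3 CPM at P1 and 69.2 at P7. Another was cluster 14, of which 86.7% were marked doublets. Among the 10 was also the dividing cluster 10, which was given no class, with 980 CPM at P1 and 3055 at P7. Cluster 5, with the most Dcn, had 42 cells at P1 and 1716 at P7. The P7 stroma thus held more cells of cluster 5, while the Dcn level inside the 6 shared stromal clusters differed by less than 2-fold. Clusters were made without batch integration, and most of the 6 came largely from 1 stage. Cluster 1, for example, had 188 P1 and 2700 P7 cells. This may favour small ratios inside clusters, and the part of cell make-up in the stromal ratio was not tested.

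Ogn behaved otherwise. It was below P1 at P7 inside all 6 of these clusters, with a median log2 ratio of -0.89, from -2.35 in cluster 0 (596 to 117 CPM) to -0.39 in cluster 12. Over all stroma the ratio was -0.20. Lum inside the same clusters had a median of -0.47, with 2 of 6 above 0, against 0.997 over all stroma. Over 15 clusters of any class the Lum median was 0.63, with 9 above 0. Fmod, in 5 of the stromal clusters, had a median of -1.02 with 3 lower 2-fold, the lowest being cluster 0 at -3.72. Bgn had a median of 0.19 and Prelp of 0.29, each with 4 of 6 above 0. For P14 against P7 no stromal cluster had 50 cells at both stages, so no such value could be given.

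**Figure D4:**
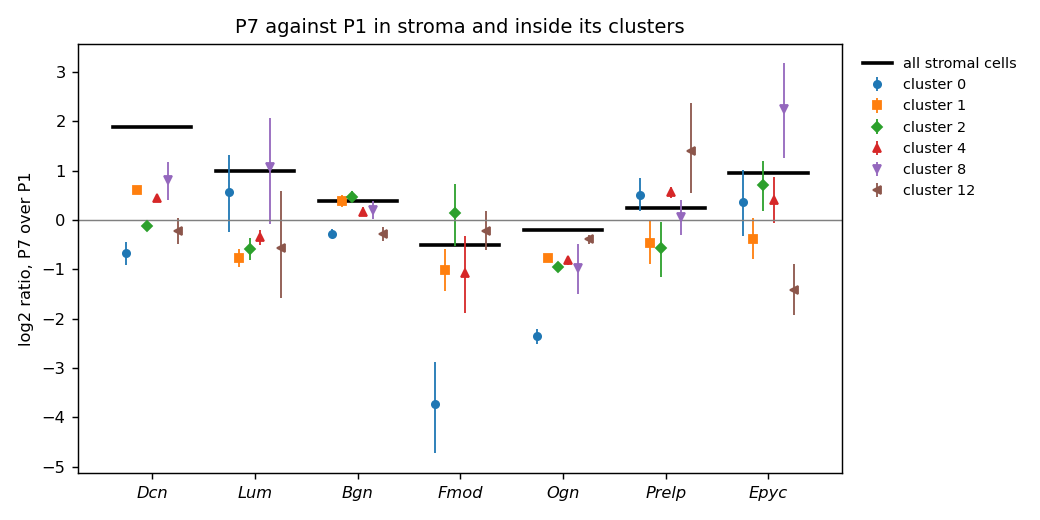
Log2 ratio of P7 over P1 for each member, for all stromal cells (black lines) and inside the 6 stromal clusters with 50 or more cells at both stages (points, with 95% counting intervals; pairs with a count of 3 or fewer are left out). The Dcn line lies at 1.88, above all 6 of its points, and the 6 Ogn points lie below 0.

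Epyc was an epithelial gene here. The epithelial cluster 17, led by Epcam, Epyc and Mia, had 2235 CPM of Epyc (2191 to 2279), and the next cluster, the glial cluster 19, 44.6 CPM. The 21 hair cells of cluster 26, all from P1, held 0 Epyc UMIs. Within cluster 17 Epyc had 1076 CPM at P1 (283 cells), 3065 at P7 (218 cells) and 7048 at P14 (79 cells). The log2 ratio was 1.51 (1.44 to 1.58) for P7 against P1 and 1.201 (1.12 to 1.28) for P14 against P7.

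The later value rests on very few cells. At P14 12 of the 79 cells held an Epyc UMI, and the 10 cells with most Epyc UMIs held 99.1% of them. In 1 of these cells Epyc took 14.6% of all UMIs. At P1 160 of 283 and at P7 137 of 218 cells held an Epyc UMI, and the 10 highest cells held 37.2% and 45.4%. These 10 cells were picked by their Epyc UMIs, and at P14 they are 10 of the 12 with any, so a low value without them is fixed by the choice and only shows how few cells carry the level. Without the 10 highest cells of each stage Epyc stood at 727, 1847 and 74.5 CPM in the cluster. Over all kept cells it then stood at 26.1, 54.3 and 19.6 CPM, a log2 ratio of 1.06 for P7 against P1 and -1.47 for P14 against P7. The Epyc share after thinning, 33.8%, 53.4% and 13.3% of epithelial cells, goes against the CPM at P14, and no order is read for that stage.

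The P14 cells of cluster 17 also differed in kind. Otos, a fibrocyte gene named after its values were seen, took 50638 CPM in them, against 5.03 at P1 and 105 at P7, and the summed stromal markers reached 95025 CPM, against 51516 in P14 stroma. Of the 12 P14 cells with Epyc, 11 also held Epcam, 11 Cldn9, 11 Mia and 3 Otos. Of the 67 without Epyc, 37 held Epcam, 22 Cldn9, 16 Mia and 39 Otos. Coch and Slc12a2, from the list of fibrocyte markers, parted them less, in 6 and 5 of the 12 and 38 and 30 of the 67. Slc12a2 was also held by 84 of 160 P1 and 81 of 137 P7 cells with Epyc, so it does not set fibrocytes apart in this cluster. The P14 cells with Epyc were also deeper than those without, with a median of 3976 UMIs against 2322. Most of the P14 Epyc cells thus held Epcam and Cldn9. These are the genes most like Epyc in these data, and Mia is a leading gene of cluster 17. Holding them is therefore no independent sign of cell type. The P14 class as a whole was mixed. Its part in the stage values was not tested.

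**Figure D5:**
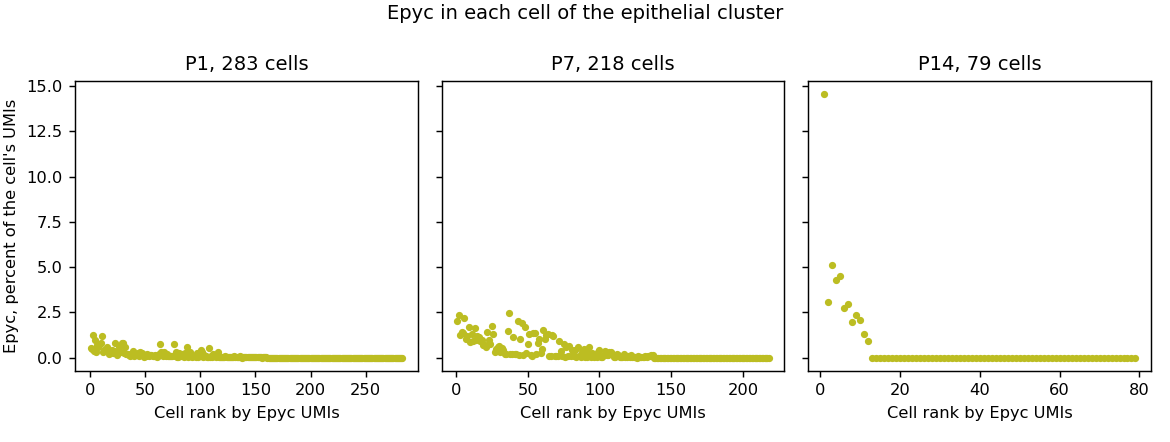
Epyc in each cell of the epithelial cluster, as percent of the cell's UMIs, with cells ordered by their Epyc UMIs, at P1, P7 and P14. At P14 12 of 79 cells hold Epyc and 1 reaches 14.6%, while at P1 and P7 it is spread over 160 of 283 and 137 of 218 cells.

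Lum and Fmod were also found in epithelium. Lum stood there at 105 CPM at P1, 434 at P7 and 396 at P14, beside 52.7, 284 and 142 CPM of Dcn. The Dcn UMIs per Lum UMI were 0.50, 0.65 and 0.36 in epithelium and 6.39, 11.8 and 3.20 in stroma, with no overlap of intervals at any stage. The Lum level in epithelium was above that of stroma at P7 and below it at P14 (396 against 1527 CPM). Fmod had 17.3, 39.0 and 53.9 CPM in epithelium, from 47, 71 and 14 UMIs, beside 22.8, 16.1 and 4.76 in stroma. As the P14 class was mixed, with Epcam in 48 of 79 cells, its P14 values are not read as levels of epithelial cells.

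Free RNA in droplets adds UMIs of abundant genes to cells that do not express them, so the levels in other classes are given beside those of stroma. Dcn in blood cells had 49.1, 464 and 975.5 CPM, with 12.1%, 37.9% and 33.8% of cells holding a UMI at a median of 7385, 7049 and 2556 UMIs. The class was uneven. At P14 blood cluster 15, led by Lyz2, C1qb and Tyrobp, had 1770 CPM of Dcn, and clusters 22 and 25, both with Ighm among their 3 leading genes, had 108 and 199. Endothelium had 72.6, 158 and 221 CPM of Dcn and glia 38.3, 110 and 110. Per Lum UMI, blood cells held 3.26, 9.82 and 3.49 Dcn UMIs, and per Ogn UMI 0.50, 3.93 and 6.77, beside 0.85, 3.57 and 6.96 in stroma. For these gene pairs the intervals of blood and stroma overlapped at P7 and P14 and not at P1. For Dcn per Bgn UMI they did not overlap at P1 or P14 (43.1 in blood against 28.1 in stroma at P14). At P7 they did overlap, with 4.87 against 5.06. For Dcn per Epyc UMI they did not overlap at P1 or P7 (49.8 against 108 at P7). At P14 they did, with 129 against 220. How much of the Dcn outside stroma is free RNA was not tested. Epyc in stroma had 11.3, 21.7 and 22.2 CPM, above its 7.86, 9.30 and 7.54 CPM in blood at P7 and P14, from 12, 13 and 22 UMIs in blood. In glia Epyc had 6.12, 18.2 and 43.1 CPM. Whether these low Epyc values outside epithelium come from free RNA was not tested.

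Omd and Aspn were nearly absent. Omd had 1, 0 and 3 UMIs at P1, P7 and P14, and Aspn 9, 0 and 0. A count of 0 in 93080129 UMIs at P7 allows a level of up to 0.0322 CPM. A gene listed as Aspnl1, a name that RefSeq gives as a synonym of Aspn, had 35.8, 33.6 and 6.61 CPM and was highest in cluster 5, with 137 CPM, and cluster 2, with 113 CPM. It was named after its values were seen. Reads of the same gene may have been divided between the 2 entries, so the low Aspn count is uncertain.

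The genes whose levels were most like those of a member over 47 cluster-by-stage units, by Pearson correlation of log2(CPM + 10), are given as a description, since units share libraries and depth. For Dcn they were Lepr (0.92), Lum (0.88) and Foxd1 (0.86), and for Lum Dcn, Gjb2 (0.82) and Vcam1 (0.81). For Ogn they were NEWGENE_1308171 (0.98), Adamts12 (0.94) and Foxd1 (0.87), and for Bgn Twist1 (0.91), Emilin1 (0.90) and Ctsk (0.90). Epyc was most like Epcam (0.93), Cldn9 (0.92) and Ucma (0.90), Prelp like Fam149a (0.84), Kcnk2 (0.84) and Flnc (0.84), and Fmod like Arg2 (0.75), Rhod (0.74) and Cnmd (0.74). Between members, Dcn with Ogn gave 0.75, Dcn with Bgn 0.38 and Dcn with Epyc 0.05.

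Genes that work with these proteins were followed in stroma from lists of their own. Of 14 listed fibrillar and associated collagens, the ligands of the core proteins, 13 passed 10 CPM, and of these 4 were higher and 2 lower 2-fold at P7 against P1, and 3 higher and 1 lower at P14 against P7. Beside this and the following counts stand the shares over all 7409 stromal genes, 9.61% higher and 4.64% lower at P7 against P1, and 12.7% and 12.6% at P14 against P7. Col1a1 had 218, 92.0 and 1238 CPM and Col3a1 653, 1815 and 3059. Col14a1, a fibril-associated collagen, had 157, 127 and 23.8 CPM. Of 14 listed receptors and co-receptors bound by the core proteins, 7 passed, and 5 of these were higher at P14 than at P7 and 0 lower (1 higher and 0 lower at P7 than at P1), with a median log2 ratio of 1.26 beside -0.04 over all 7409 genes. Tgfbr3, the transforming growth factor beta co-receptor, had 22.9, 43.4 and 582 CPM.

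Of 17 listed genes of collagen assembly and crosslinking 10 passed, of which 3 were higher at P7 and 2 higher and 1 lower at P14. Lox, the lysyl oxidase, had 123, 96.9 and 528 CPM, and Serpinh1, the collagen chaperone, 712, 1004 and 392 CPM. Of 16 listed enzymes of chondroitin and dermatan sulfate 9 passed, of which 3 were higher at P7, and 1 higher and 1 lower at P14. Chst14, which sulfates dermatan, had 24.2, 55.0 and 19.2 CPM. Of 7 linker enzymes 5 passed, of which 1 was higher at P7 and 1, B4galt7, lower at P14. Of 8 keratan sulfate enzymes 3 passed, of which 1, Chst1, was higher at P7 (25.8 to 91.2 CPM) and 1, B3gnt2, higher at P14 (11.1 to 68.9 CPM). Of 14 listed ligands of the transforming growth factor beta and bone morphogenetic protein pathways 12 passed, of which 5 were higher at P7, and 2 higher and 1 lower at P14.

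Of 9 listed relatives of the members 7 were in the files and 1 passed, Tsku, with 6.59, 13.2 and 21.4 CPM, higher 2-fold at P7 than at P1. Chad, below that minimum, had 4.18, 8.67 and 65.8 CPM. Kera, the protein-coding gene between Lum and Epyc, had 14, 7 and 0 UMIs in stroma, and Optc, the protein-coding gene beside Prelp, 214, 133 and 13. The large aggregating proteoglycan Vcan had 167, 183 and 27.1 CPM, lower at P14 by 2.76 on the log2 scale. Vcan was the only gene of its list of 11 that passed the minimum, so no list value is drawn.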

How the data were processed

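Droplet single-cell RNA sequencing was done on 3 libraries, 1 per stage. Per the labels and the study's methods, the authors processed them with bcl2fastq, Cell Ranger (3.1.0 per the file headers) on the rat genome rn6, and Seurat 3.1.1. The deposited matrices hold raw UMI counts for each gene in each barcode and were used as they are. The rule for calling cells is not given in the sources used here.

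Barcodes with 501 to 4999 genes, at least 500 UMIs and under 25% of UMIs on mitochondrial genes were kept. Kept cells held 98005495 (P1), 93080129 (P7) and 11641065 (P14) UMIs. Cells were clustered in Seurat 5.3.0 (R 4.3.3; LogNormalize, 2000 variable genes less the members, of which 5 were among them, 10 principal components, resolution 0.8, seed 0), without batch integration. A cluster was named from 143 marker genes found of 151, when at least 3 markers of a class were 2-fold above other cells (10 CPM added) and led the next class 1.5 times. The class also needed at least as many markers as any other class among the cluster's 10 leading genes, and under 50% marked doublets. These naming limits were set after the clusters were seen. They left 18.8% of P1, 12.4% of P7 and 3.56% of P14 cells unnamed. Cluster 7, led by Pcsk1, Gas7 and Lgi4, had 6 glial markers past 2-fold but failed on its leading genes. It held 1323 P1 and 397 P7 cells. Cluster 14, with 3 glial markers, failed on doublets, and values for glia leave out both clusters. Scrublet (scanpy 1.11.5) marked 4.87% of P1 and 6.16% of P7 cells and 0.0379% at P14, where it did not work. No doublets were removed in the values given.

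Members and lists were chosen with earlier results of these data known. Named genes are the 9 members, genes of 9 further lists (106 of their 110 genes were in the files), the 3 leading genes of a cluster, and the 3 genes most like each member. With 1 library per stage and cells that are not replicates, no test was made. Intervals are exact at 95% (Poisson for levels, binomial for shares and ratios), and a count of 0 allows 3 counts. Genes with at least 10 CPM were compared between stages. Detection was compared in cells thinned to 1000 UMIs each, a step that left out 37, 193 and 735 cells. Sums were also recomputed with other filters, scalings, cell weights and clusterings. On simulated P7 and P1 sums of 7750 genes, 200 of 200 changed genes had the right sign, with a median absolute error of 0.0219 in log2, and for P14 and P7 200 of 200 with 0.0423. These sums were Poisson draws with planted changes and no variation between libraries or in cell make-up. They check the arithmetic only and say nothing of how far 1 library stands for a stage. Other steps used Python 3.11.15, numpy 2.4.6, scipy 1.17.1, pandas 2.3.3 and matplotlib 3.10.9.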

Additional observations from a re-analysis of the deposited data

Results flagged for a closer look

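For 5 pairs a member differed one way in stroma and the other way in another class, with both counting intervals on 1 side of 0. With 1 library per stage the difference between the classes was not tested. Between P7 and P14 the log2 ratio of Dcn was -0.996 in epithelium and 1.06 in stroma. The P14 epithelial value rests on 37 Dcn UMIs in 79 cells, a class that was mixed at that stage. Between P1 and P7, Bgn had -0.77 in glia and -0.36 in mural cells, beside 0.39 in stroma. The cells named as glia lay mainly in cluster 11 at P1 and in cluster 3 at P7, and inside these clusters Bgn had -0.29 and -0.53. Cluster 7, left unnamed with 6 glial markers, held 1323 P1 and 397 P7 cells, more at P1 than the 596 named as glia. Inside it Bgn had -0.56. Fmod had 1.17 in epithelium and -0.50 in stroma over the same stages. Prelp had -0.43 in glia and 0.23 in stroma, but inside glial clusters 3 and 11 it had -0.13 and -0.07 with intervals on both sides of 0. In cluster 7 it had 0.67, also with an interval on both sides of 0.

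Barcodes outside the filter, which enter no other value, held the family too. The 9 members took 486 CPM in the 1289 barcodes left out at P1, 1161 CPM in 1920 at P7 and 1877 CPM in 1077 at P14, each below the level in kept cells of the same library.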

How the results depend on the processing

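No paired analysis was possible because each stage has 1 library and the labels give no replicate numbers. The 7 members gave 28 stage ratios over all cells and in stroma. Of these, 23 kept 1 direction under every alternative run, and of the 12 past 2-fold, 9 stayed past it. The exceptions in direction were Ogn for P7 against P1 in stroma and P14 against P7 in both, and Epyc for P14 against P7 in both. Over all cells Epyc turned from 1.11 to -1.47 without the 10 cells richest in Epyc at each stage, a setting chosen after seeing the data that removes 10 of 12 epithelial Epyc cells at P14. It became 0.33 with the mean of each cell's CPM, 0.50 with cells thinned to 1000 UMIs and 0.81 with a mitochondrial limit of 10%. That limit brought the members higher by 2-fold between P7 and P14 from 2 to 1. Dcn in stroma went from 1.06 to 0.89 at resolution 1.2, and Prelp from 1.13 to 0.98 with the mean of each cell's CPM. Other ratios came to pass 2-fold. In stroma for P7 against P1, Lum (0.997) did so in 6 of 11 alternatives, up to 2.12 at resolution 1.2, and Epyc (0.945) in 3, up to 1.13, while Dcn went from 1.88 to 3.01 at resolution 1.2. Dcn over all cells for P14 against P7 (0.70) passed it in 2 of 7, up to 1.13.

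The log2 ratio of the summed family, P7 against P1 over all cells, was 0.80 with a mitochondrial limit of 10%, 0.76 with the mean of each cell's CPM, 0.70 with median-of-ratios scaling, 0.84 without hemoglobin and mitochondrial genes in the total and 0.75 after thinning. For P14 against P7 it was 0.58 (mitochondrial limit of 10%), 0.95 (mean of each cell's CPM), 0.61 (without hemoglobin and mitochondrial genes) and 1.04 (thinned). In stroma, P7 against P1 gave 1.019, 0.99, 0.82, 0.99 and 0.99 under the same 5 settings, 0.93 at resolution 0.4, 1.43 at resolution 1.2, 0.95 with members kept among the variable genes and 0.94 with unnamed clusters placed by their leading marker count. P14 against P7 in stroma gave 0.945 (mitochondrial limit of 10%), 1.10 (mean of each cell's CPM), 1.03 (median-of-ratios), 0.94 (without hemoglobin and mitochondrial genes), 1.08 (thinned), 1.03 at resolution 0.4 and 0.84 at resolution 1.2. The stromal share of the family was 78.2% with a mitochondrial limit of 10%, 84.1% without marked doublets, 85.5% after thinning, 81.5% at resolution 0.4, 67.2% at resolution 1.2, 80.3% with members kept, 83.7% without cluster 14, of which 86.7% were marked doublets, and 81.3% with unnamed clusters placed. The last pair of settings was chosen after seeing the data. Each of these sums and shares keeps its direction, and the cause was not tested. Median-of-ratios scaling shifted all genes by -0.12 in log2 for P7 against P1 (-0.15 in stroma). Without a CPM minimum 46.5% of genes were higher at P14 than at P7, since a count of 0 weighs more in the shallow library. The low depth at P14 limits members of a few UMIs most.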

Other observations

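Unnamed clusters carried the family too. The dividing cluster 10, led by Cenpf, Top2a and Mki67, had 2846 CPM for the 9 members together, with 1768 CPM of Dcn, 382 of Bgn and 382 of Ogn. Cluster 20, with Hba-a2 among its 3 leading genes and a median of 1497 UMIs in 331 cells, had 2452 CPM of Dcn and 493 of Lum. Cluster 24, led by Car2, Actg2 and Apoc4, had 417 CPM of Bgn and 44.6 of Dcn.

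The members also differed in their spread over cells. The 10% of cells with most UMIs of the gene held 21.3% of the Dcn UMIs of cluster 5, 30.2% of the Ogn UMIs of cluster 2, 42.01% of the Lum UMIs of cluster 6 and 75.6% of the Epyc UMIs of cluster 17. In the mural cluster 16 the P14 library gave 62 cells, with 1200 CPM of Dcn and 960 of Ogn, beside 280 and 161 at P7, while Bgn stood at 674 and 667 CPM. The P14 values rest on 105 Dcn and 84 Ogn UMIs. The summed stromal markers in mural cells stood at 13983 CPM at P14 and 5278 at P7, and their part in these levels was not tested.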
